A study of Mus musculus with 6 samples.

Results

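The 10 genes described here encode ligands, receptors, a receptor-modifying enzyme and target proteins of the Notch pathway: Dll1, Dll3, Jag1, Notch1, Notch2, Mfng, Hes1, Hes5, Hey1 and Nrarp. Every probe of the array whose gene symbol was one of these was taken, which gave 13 of the 45281 probes, for 10 of the 30869 gene symbols. RNA came from SmoWT-MB, a line of mouse medulloblastoma cells that the labels describe as Ptch-deficient. All 3 groups were treated for 6 h and shared that line and its deficiency. The agents, on 2 arrays each, were the vehicle DMSO, the compound JQ1, which blocks the acetyl-lysine pockets of BET chromatin readers, and GDC-0449, which blocks Smoothened, the membrane protein that passes on the hedgehog signal. Doses are not in the labels, and neither is whether the 2 samples of a group were separate cultures, so the p-values speak only to the scatter among these arrays, possibly a technical one. A single line was used, so nothing here speaks to other medulloblastomas.

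Notch receptors sit in the plasma membrane and are activated by ligands of the Delta-like and Jagged families on a neighbouring cell. Ligand binding leads to cleavage of the receptor, and the freed intracellular part enters the nucleus, where it joins the DNA-binding protein RBPJ and a Mastermind coactivator and switches on genes such as those of the Hes and Hey repressors. In the developing cerebellum the pathway is known for keeping granule neuron precursors, the cells from which hedgehog-driven medulloblastoma arises, from differentiating.

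RefSeq start sites on the GRCm38.p6 build were found for 7 of the 10 genes. Hes1, Hey1 and Mfng had no entry. The 250 bases before the start are shown for Notch1, Dll1, Hes5 and Nrarp, the 4 genes called as risen with JQ1 after quantile normalization (values below). Capitals mark matches on either strand to GTGGGAA, the letters bound by RBPJ, to CACGTG, an E-box, and to CACNAG, the N-box bound by Hes proteins. For Dll1, which has 2 listed starts, the outermost is shown. The Hes5 start listed lies within the Hes5 gene record, which begins at 154960626, so the Hes5 window lies inside that record.
Notch1 (chr2:26503823-26504072, minus strand): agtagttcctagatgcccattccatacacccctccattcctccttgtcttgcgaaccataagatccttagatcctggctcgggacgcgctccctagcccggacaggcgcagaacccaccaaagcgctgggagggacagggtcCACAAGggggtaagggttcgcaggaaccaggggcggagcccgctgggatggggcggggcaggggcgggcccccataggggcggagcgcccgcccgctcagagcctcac
Dll1 (chr17:15376933-15377182, minus strand): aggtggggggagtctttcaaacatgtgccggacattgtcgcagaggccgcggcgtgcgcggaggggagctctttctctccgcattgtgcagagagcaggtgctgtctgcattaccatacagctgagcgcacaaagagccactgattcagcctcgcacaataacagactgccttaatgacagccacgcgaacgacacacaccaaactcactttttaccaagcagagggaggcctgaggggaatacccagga
Hes5 (chr4:154960673-154960922, plus strand): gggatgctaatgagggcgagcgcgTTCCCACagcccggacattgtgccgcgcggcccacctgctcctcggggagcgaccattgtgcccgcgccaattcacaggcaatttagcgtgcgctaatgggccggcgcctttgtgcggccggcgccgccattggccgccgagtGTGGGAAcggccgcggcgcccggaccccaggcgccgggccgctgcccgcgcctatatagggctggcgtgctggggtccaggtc
Nrarp (chr2:25180508-25180757, plus strand): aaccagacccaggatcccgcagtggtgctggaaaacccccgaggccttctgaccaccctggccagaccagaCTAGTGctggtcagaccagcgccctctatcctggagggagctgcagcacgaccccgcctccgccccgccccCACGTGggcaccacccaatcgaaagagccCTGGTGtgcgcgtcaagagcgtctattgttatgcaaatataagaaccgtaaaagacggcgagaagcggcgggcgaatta

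The Hes5 window held 2 matches to the RBPJ letters, which began at -226 and -83 relative to the start, one on each strand. Of the 32851 promoter windows of this length in the table, 5.42% held at least 1. The Nrarp window held an E-box at -108, which 6.02% of windows had, and N-boxes at -179 and -79. The Notch1 window held an N-box at -108, and the Notch2 window, not shown, held an N-box at -247. N-box letters are common, with at least 1 match in 36.7% of windows. No match was found in the Dll1 windows, nor in those of Dll3 and Jag1, which are not shown. GACCACCCA, the letters bound by the hedgehog effectors of the GLI family, was in none of the windows of the 7 genes and in 0.225% of all windows. No match of one motif overlapped a match of another. A match describes letters only, and its absence in these windows says nothing of binding elsewhere.

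Values below are log2 intensities after background correction and quantile normalization unless called deposited intensities, which are linear and not normalized. A probe was tested if its detection p was under 0.01, here called above background, on at least 2 of the 6 arrays. This held for 10 of the 13 probes and for 8 of the 10 genes. A gene with several tested probes was counted by its brightest. Between 15125 and 16466 probes were above background on an array. The lowest value so counted was 5.42 to 5.47 on the JQ1 arrays and 5.19 to 5.25 on the other 4.

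**Figure D1:**
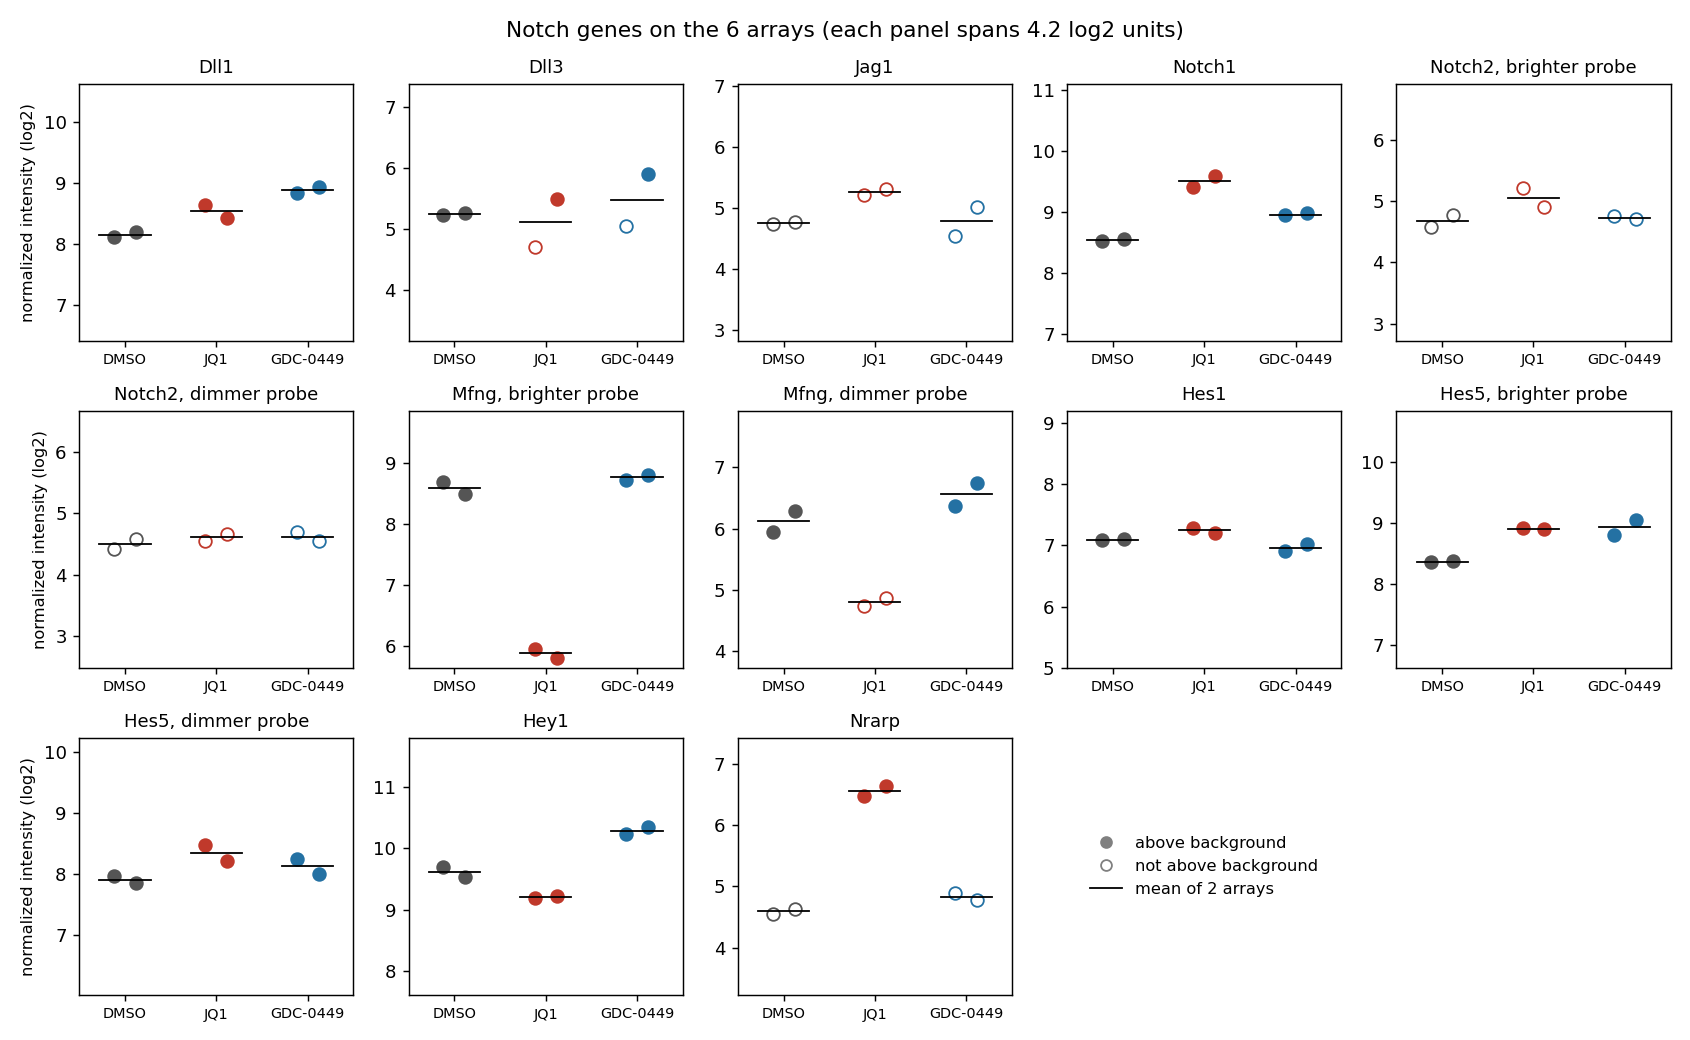
Normalized log2 intensity (vertical axis) of each of the 13 probes on the 2 arrays of each group, with array 1 left of array 2, a bar at the mean, and open points where the probe was not above background. Mfng is lowest and Nrarp highest on the JQ1 arrays, Hey1 is lowest with JQ1 and highest with GDC-0449, and Notch2 and Jag1 are not above background on any array.

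With JQ1, 4 of the 8 tested genes rose (Notch1, Dll1, Hes5 and Nrarp) and 2 fell (Mfng and Hey1) at a limma adjusted p under 0.05, while Hes1 and Dll3 did not pass. Among all 12138 genes represented by their brightest tested probe, 57.1% were called with JQ1, of which 27.7% of genes rose and 29.4% fell. The share called was thus high in general, and Nrarp entered the test only through its JQ1 arrays, so the count of 6 is a description. Without DMSO array 1 the falls numbered 1, and with arrays scaled to a common median in place of quantiles the rises numbered 2 (Notch1 and Nrarp). With GDC-0449, 4 genes rose (Notch1, Dll1, Hes5 and Hey1) and 0 fell in limma's adjusted test, while Nrarp passed upward only before adjustment. The rises numbered 2 without DMSO array 1, DMSO array 2 or GDC-0449 array 2, and 1 (Dll1) with median scaling. The background there was lower, with 15.9% of all genes called, 7.43% up and 8.44% down. All comparisons with DMSO share the same 2 DMSO arrays.

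**Figure D2:**
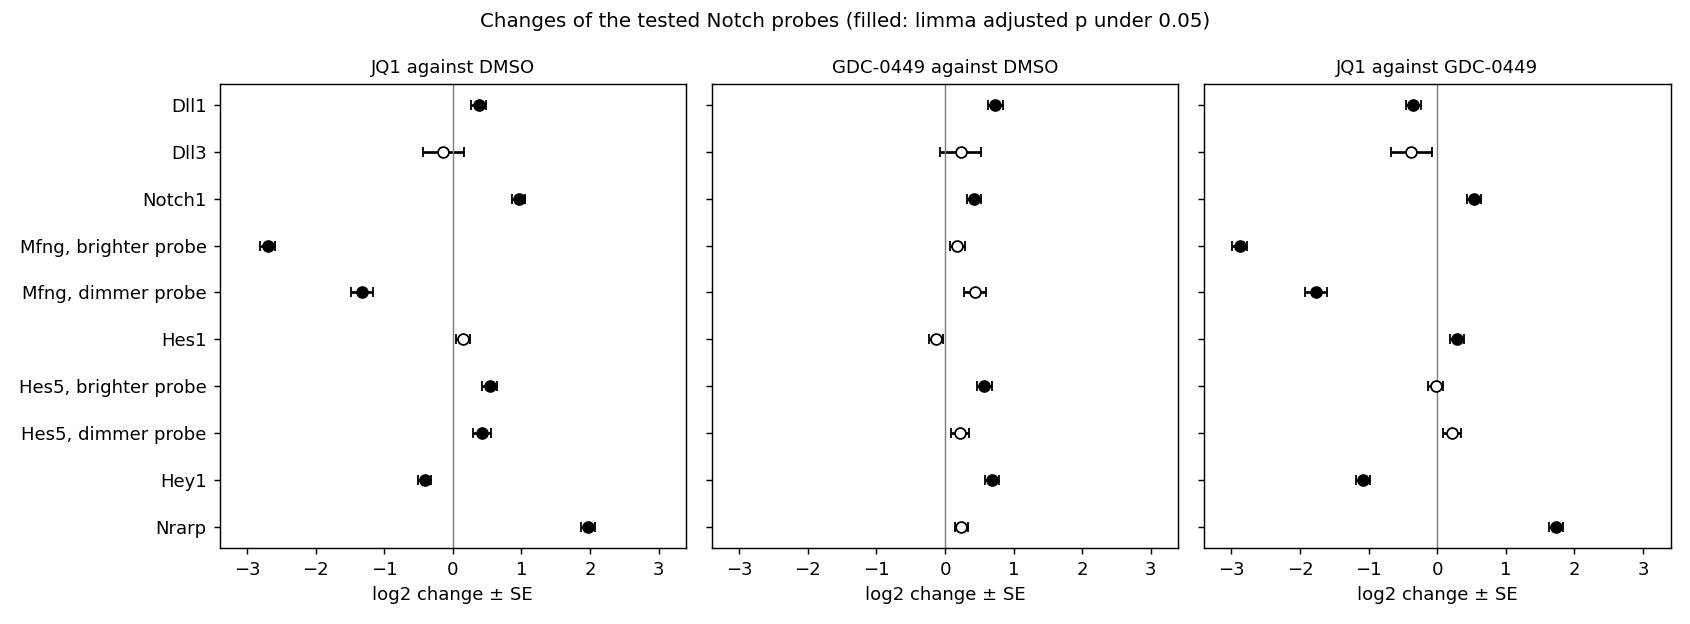
Log2 change with its standard error (horizontal axis) of the 10 tested probes in the 3 comparisons, with filled points for a limma adjusted p under 0.05. With JQ1 Mfng is at -2.70 and Nrarp at a fitted 1.97, which depends on the offset, and no probe passes 0.73 with GDC-0449.

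Among the ligand genes, Dll1 was measured well and Dll3 poorly. Dll1, which encodes a Delta-like ligand that activates Notch on neighbouring cells, read 8.11 and 8.19 with DMSO, 8.64 and 8.42 with JQ1 and 8.84 and 8.93 with GDC-0449. The 3 groups did not overlap. With 2 arrays in each group, such separation is a description, here and for the genes below. GDC-0449 raised it 1.66-fold (log2 change 0.73, SE 0.11, limma adjusted p = 0.00531). As in all comparisons here, n was 2 arrays in either group. Of all 17026 tested probes, 2.65% had a larger change in either direction with GDC-0449. Its rise with JQ1 was smaller (0.38, SE 0.11, adjusted p = 0.0174), and 48.5% of tested probes had a larger change with JQ1. The deposited intensities for Dll1 were 398.4 and 343.4 with DMSO and 361.5 and 325.6 with JQ1, so its rise with JQ1 is a rise relative to the other genes of those arrays. That call was lost with median scaling in place of quantiles (0.02, adjusted p = 0.89), without DMSO array 1 (adjusted p = 0.0807) and without JQ1 array 1 (adjusted p = 0.119), whereas the rise with GDC-0449 held in all 16 alternatives.

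Dll3, a divergent Delta-like protein that in mouse acts within the cell and not as an activating ligand, read 5.24 and 5.26 with DMSO, 4.71 and 5.50 with JQ1, and 5.06 and 5.91 with GDC-0449. It was above background on both DMSO arrays and on 1 array of each treated group, and the arrays of a treated group differed by 0.79 and 0.85. Neither change passed the test (JQ1 -0.14, 95% interval -0.83 to 0.54; GDC-0449 0.23, interval -0.45 to 0.92), and such intervals leave room for changes in either direction. Jag1, the Jagged ligand gene, was above background on 0 of 6 arrays, with normalized values between 4.54 and 5.31, and was not tested. Its lowest detection p was 0.0139, on a JQ1 array.

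Of the receptor genes among the members, only Notch1 was above background. Notch1 read 8.52 and 8.56 with DMSO, 9.41 and 9.59 with JQ1, and 8.95 and 8.98 with GDC-0449. No group overlapped another, and JQ1 gave the highest values. With JQ1 it rose 1.95-fold (log2 change 0.96, SE 0.10, limma adjusted p = 9.75e-05), and this held in all 16 alternatives. Its deposited intensities also rose with JQ1, from 518.7 and 436.4 to 602.2 and 723.2. With GDC-0449 the rise was 1.34-fold (0.42, SE 0.10, adjusted p = 0.0272), while the deposited intensities of 488.0 and 509.4 lay within the range of the DMSO arrays. The GDC-0449 call was lost with median scaling (0.15, adjusted p = 0.439) and on omitting any single DMSO or GDC-0449 array (adjusted p from 0.0876 to 0.121). Both Notch2 probes were above background on 0 of 6 arrays, with normalized values between 4.42 and 5.22, so the level of this receptor, which granule neuron precursors are known to use, was below what these probes could measure.

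Mfng, which encodes Manic fringe, a Golgi enzyme that lengthens the O-fucose sugars on Notch and so changes its response to the different ligand families, fell strongly with JQ1. Its brighter probe read 8.69 and 8.48 with DMSO, 5.96 and 5.81 with JQ1, and 8.72 and 8.80 with GDC-0449. JQ1 values lay far below all others, and the GDC-0449 arrays lay just above the DMSO arrays. With JQ1 it fell 6.50-fold (log2 change -2.70, SE 0.11, limma adjusted p = 1.53e-06), and 35 of the 17026 tested probes fell further. In deposited intensities this was a fall from 582.5 and 414.8 to 80.3 and 79.0. As the JQ1 values stood little above the lowest signal counted as detected, the fall may be understated.

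The dimmer Mfng probe went the same way with JQ1. It read 5.95 and 6.29 with DMSO, 4.73 and 4.86 with JQ1, and 6.37 and 6.75 with GDC-0449. It was not above background on the JQ1 arrays, so its fall was at least 1.60-fold (adjusted p = 0.000183). This probe entered the test only through the DMSO and GDC-0449 arrays, so its call is a description. With GDC-0449 neither probe passed (0.18, adjusted p = 0.311, and 0.44, adjusted p = 0.0922). Under median scaling the brighter probe had the other sign with GDC-0449 (-0.09), and the dimmer probe passed in 3 of 12 alternatives. In bulk RNA such as this, fewer cells with a transcript and less of it per cell cannot be told apart.

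The Hes and Hey genes encode basic helix-loop-helix repressors that are classical Notch targets, and they did not move as one group. Hey1 read 9.70 and 9.54 with DMSO, 9.19 and 9.22 with JQ1, and 10.24 and 10.35 with GDC-0449, so that the 2 compounds lay on opposite sides of DMSO with no overlap. It fell 1.33-fold with JQ1 (log2 change -0.41, SE 0.10, adjusted p = 0.00924) and rose 1.60-fold with GDC-0449 (0.68, SE 0.10, adjusted p = 0.00548). A larger change in either direction was seen in 45.9% of tested probes with JQ1 and 3.52% with GDC-0449. Deposited intensities were lower with JQ1, 523.7 and 559.8 against 1124.9 and 828.0 with DMSO, while those with GDC-0449 were 1128.7 and 1233.4. The mean deposited intensity of all probes was also lower with JQ1, 303 and 313 against 408 and 344 with DMSO. The fall was lost without DMSO array 1 (-0.33, adjusted p = 0.0571) and the rise with median scaling (0.38, adjusted p = 0.0646).

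Hes5 rose by a similar amount with either compound on its brighter probe, from 8.35 and 8.37 with DMSO to 8.91 and 8.90 with JQ1 and 8.80 and 9.05 with GDC-0449. The log2 changes were 0.54 with JQ1 (SE 0.11, adjusted p = 0.00286) and 0.57 with GDC-0449 (SE 0.11, adjusted p = 0.0126). Of tested probes, 33.4% had a larger change with JQ1 and 6.16% with GDC-0449. The dimmer Hes5 probe read 7.97 and 7.85 with DMSO, 8.47 and 8.21 with JQ1 and 8.25 and 8.01 with GDC-0449. It rose with JQ1 (0.43, adjusted p = 0.0201) but did not pass with GDC-0449 (0.22, adjusted p = 0.272). Deposited intensities of the brighter probe were 465.6 and 387.8 with DMSO and 426.9 and 450.9 with JQ1, and those with GDC-0449 were 447.2 and 530.5, so the treated and DMSO ranges overlapped before normalization. With median scaling the brighter probe passed with neither JQ1 (0.19, adjusted p = 0.251) nor GDC-0449 (0.29, adjusted p = 0.131), and the GDC-0449 call was also lost without either DMSO array or GDC-0449 array 2 (adjusted p from 0.0622 to 0.0729). The dimmer probe's JQ1 call was lost with median scaling, with no filter on dim probes, without DMSO array 2 and without JQ1 array 1 (adjusted p from 0.0621 to 0.716).

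Hes1 read 7.08 and 7.11 with DMSO, 7.29 and 7.20 with JQ1 and 6.90 and 7.02 with GDC-0449. The groups did not overlap, but the steps were small. Neither change passed the test (JQ1 0.15, 95% interval -0.07 to 0.37; GDC-0449 -0.13, interval -0.36 to 0.09), and with median scaling the JQ1 value was -0.22. The intervals exclude a 2-fold change in these values.

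Nrarp encodes a small ankyrin-repeat protein that is induced by Notch and limits Notch signalling by binding the cleaved receptor's complex. It read 4.55 and 4.63 with DMSO, 6.48 and 6.64 with JQ1 and 4.89 and 4.77 with GDC-0449, and only the JQ1 arrays were above background. With JQ1 it rose at least 2.55-fold (limma adjusted p = 3.71e-06), and the fitted log2 change was 1.97, a value that depends on the offset because the DMSO signal was not measured. Deposited intensities went from 53.4 and 54.9 to 102.3 and 115.7. The rise held in all 15 alternatives in which the probe could be tested. Under the detection filter it entered the test only through its JQ1 arrays, so this count is a description. With GDC-0449 no fold is given, since the probe was below background in both groups.

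**Figure D3:**
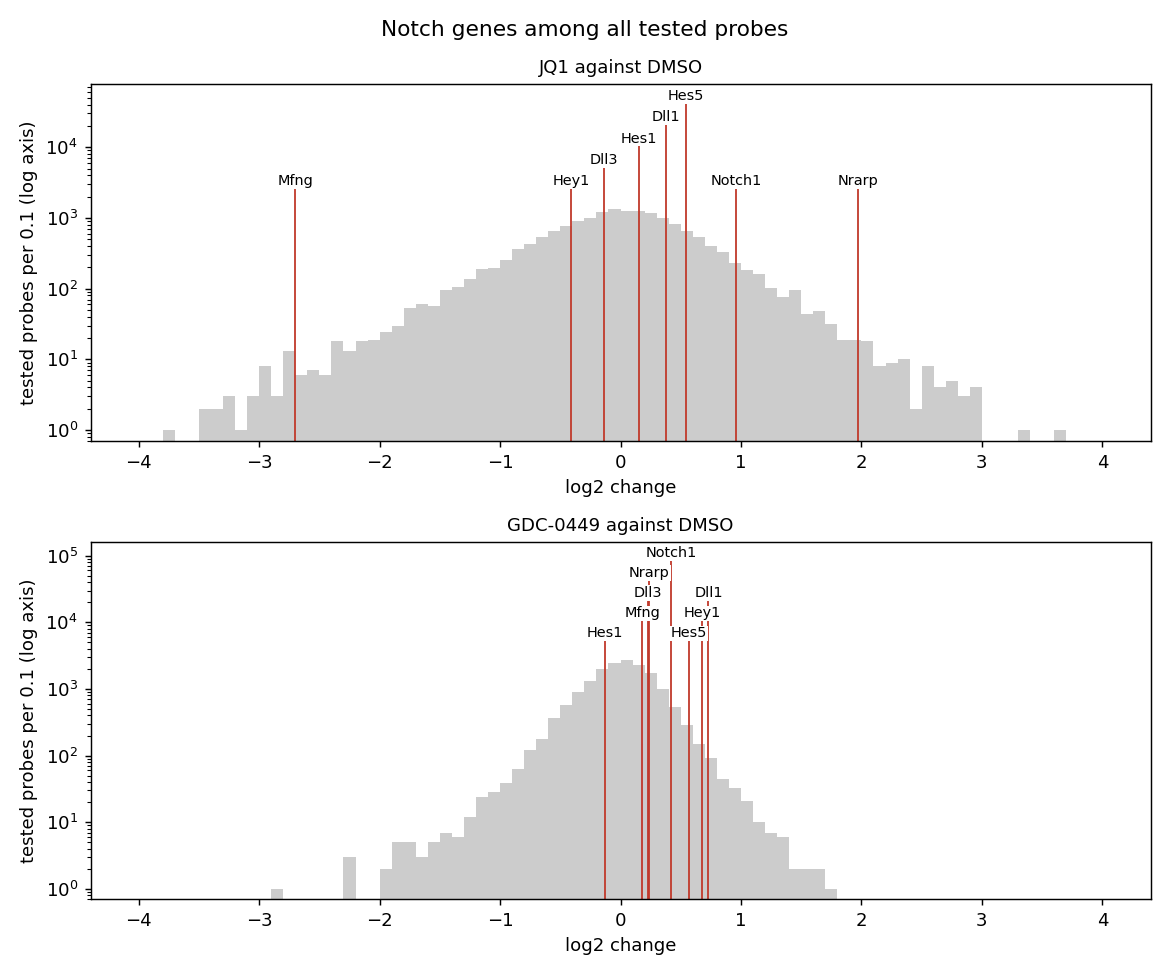
Number of tested probes (vertical log axis) in steps of 0.1 of the log2 change (horizontal axis) with JQ1 and with GDC-0449, with a red line for the brightest probe of each of the 8 tested genes. Mfng and Nrarp stand in the tails of the JQ1 panel, and Dll1 and Hey1 on the right shoulder of the GDC-0449 panel.

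JQ1 and GDC-0449 were also compared directly, which does not involve the DMSO arrays' levels. With JQ1 relative to GDC-0449, 3 of the 8 tested genes were higher (Notch1, Hes1 and Nrarp) and 3 lower (Dll1, Hey1 and Mfng), where 53% of all genes were called, 25.8% higher and 27.2% lower. Mfng was 7.36-fold lower with JQ1 (log2 difference -2.88, SE 0.11, limma adjusted p = 1.57e-06), Hey1 2.12-fold lower (-1.08, SE 0.10, adjusted p = 6.09e-05) and Nrarp at least 2.52-fold higher (adjusted p = 7.28e-06). Notch1 was 1.45-fold higher (0.54, SE 0.10, adjusted p = 0.00234). These 4 held in every alternative in which they could be tested, 16 for Mfng, Hey1 and Notch1 and 15 for Nrarp. Nrarp entered the test only through its JQ1 arrays, so its call and its place among the 3 higher genes are a description. Dll1 was lower (-0.35, adjusted p = 0.0254) and Hes1 higher (0.29, adjusted p = 0.0352), but each of these calls was lost in several alternatives, with adjusted p up to 0.164 for Dll1 and 0.6 for Hes1. The difference in Hes5 did not pass (-0.02, 95% interval -0.27 to 0.23, adjusted p = 0.881), nor did that in Dll3 (-0.38, interval -1.06 to 0.31).

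The rest of the pathway was followed with a list of 63 genes sorted by role, of which 53 are not members and 37 of those were tested. With JQ1, 12 of the 37 rose and 9 fell, which is 56.8% against 57.1% for all genes, with a median log2 change of 0.02 against 0 for all genes. The list's other genes were thus called about as often as any gene. With GDC-0449, 6 rose and 3 fell, which is 24.3% against 15.9%, with a median of 0.04 against 0.01. With JQ1 relative to GDC-0449, 8 were higher and 10 lower, 48.6% against 53%. Median scaling kept all 9 falls with JQ1 but only 3 of the 12 rises (Notch4, Spen and Hes6), and it turned the sign of Crebbp and Dtx2. With GDC-0449 it kept all 3 falls and 1 of the 6 rises (Neurl1b).

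**Figure D4:**
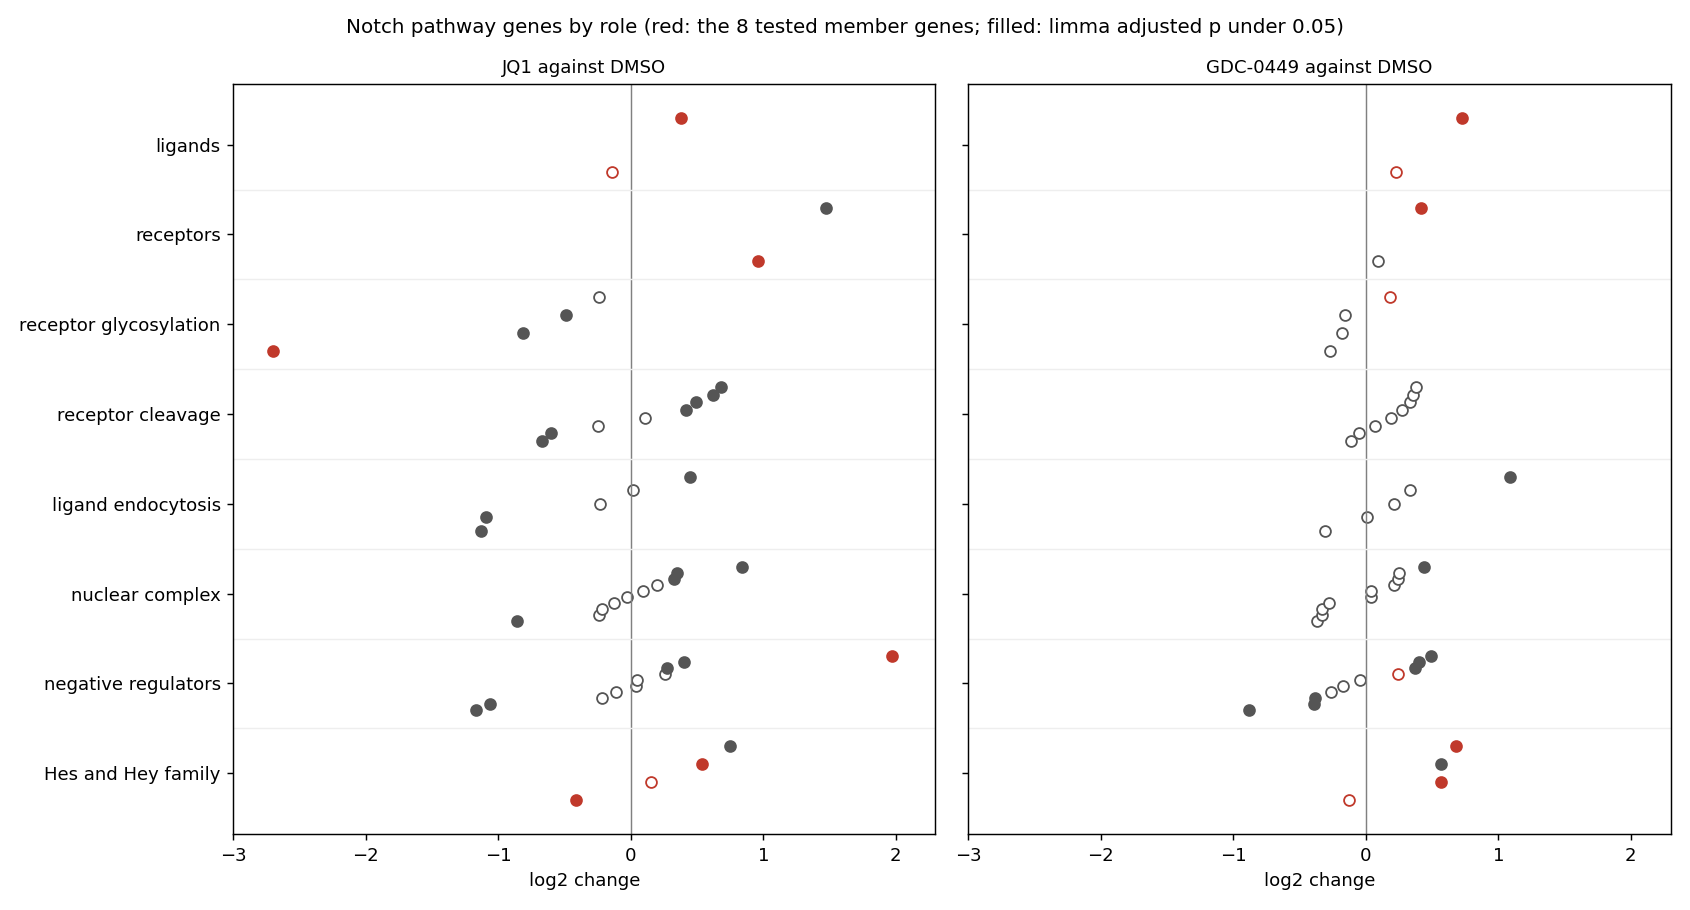
Log2 change (horizontal axis) of the 45 tested Notch pathway genes, grouped by role, with JQ1 (left) and GDC-0449 (right), red for the 8 tested members and filled for a limma adjusted p under 0.05. With JQ1 the receptor glycosylation genes all lie left of 0, and with GDC-0449 none of that group passes the test.

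Among receptors, Notch4, best known from endothelial cells, rose with JQ1 from 6.54 and 6.56 to 8.12 and 7.93 (log2 change 1.47, SE 0.10, adjusted p = 1.24e-05) and read 6.68 and 6.60 with GDC-0449. Of 6 endothelial marker genes, Pecam1, Cdh5, Tek, Cldn5 and Tie1 were not above background and Kdr was near it, with values between 4.79 and 5.49. Notch3 was not above background, nor were the ligand genes Dll4 and Jag2.

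Of 4 tested receptor glycosylation genes, 3 fell and 0 rose with JQ1, where 29.4% of all genes fell. With so few genes this is a description. Besides Mfng, these were Poglut1, the enzyme that adds O-glucose to Notch (-0.81, SE 0.09, adjusted p = 0.000181), and Rfng, Radical fringe (-0.49, SE 0.15, adjusted p = 0.0218). Pofut1, which adds the O-fucose that fringe enzymes extend, gave -0.24 (adjusted p = 0.0602; other probe 0) and did not pass, and Lfng was not above background. With GDC-0449, 0 of the 4 passed, where 15.9% of all genes did.

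Genes for receptor cleavage were split with JQ1, 4 up and 2 down of 8 tested, where 57.1% of all genes were called. Within the gamma-secretase complex, the catalytic subunit gene Psen2 (0.62) and the subunit gene Aph1b (0.68) rose, while the subunit genes Psenen (-0.67, adjusted p = 0.000889) and Ncstn (-0.60, adjusted p = 0.000857) fell. The other tested Ncstn probes gave smaller falls of -0.15 and -0.45. Median scaling left Psen2 (0.26) and Aph1b (0.32) short of the threshold. The brighter Aph1a probe gave 0.11 with JQ1 and its other probe -2.17, so no direction is stated for Aph1a. With GDC-0449, 0 of these 8 genes passed, against 15.9% of all genes.

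Ubiquitin ligases that drive ligand endocytosis, a step the ligand-bearing cell needs to activate Notch, differed from one another. With JQ1, Mib2 fell from 9.86 and 9.83 to 8.67 and 8.75 (-1.13, SE 0.10, adjusted p = 3.49e-05), and Neurl1a fell at least 1.97-fold (adjusted p = 9.37e-05). Neurl1a was not above background with JQ1 and entered the test only through the other groups, so its call is a description. Mib1 rose (0.45, adjusted p = 0.00371), with 0.09 under median scaling. With GDC-0449, Neurl1b rose at least 1.36-fold (adjusted p = 0.00156) and read 4.59 and 4.54 with DMSO, 4.58 and 4.58 with JQ1 and 5.49 and 5.81 with GDC-0449. Like Nrarp with JQ1, it was above background in that group alone and entered the test only through it, so its place among the 6 rises is a description.

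In the nuclear complex, the Rbpj probes were not above background on any array at this threshold, so the DNA-binding partner itself was not measured. With JQ1, the coactivator gene Maml2 fell (-0.86, SE 0.12, adjusted p = 0.000366) and the corepressor gene Spen rose (0.84, SE 0.16, adjusted p = 0.00214). The acetyltransferase genes Ep300 (0.35) and Crebbp (0.33) passed with JQ1 under quantile normalization only, with 0.02 and -0.04 under median scaling. Their other tested probes gave 0.38 for Ep300 and 0.16 for Crebbp with JQ1. With GDC-0449, Ep300 was the gene of this role that passed (0.44, adjusted p = 0.0347, other probe 0.25), and it did not with median scaling (0.15).

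Among genes listed here as negative regulators, other than Nrarp, the Deltex genes moved in both directions. Their products are ubiquitin ligases that bind the Notch intracellular part, and whether they limited Notch in these cells was not tested. Dtx1 fell with JQ1 from 6.72 and 6.77 to 5.63 and 5.51 (-1.17, SE 0.10, adjusted p = 2.81e-05), and with GDC-0449 to 6.32 and 6.39 (-0.39, adjusted p = 0.0325). Dtx4 fell with JQ1 (-1.06, adjusted p = 0.000403; other probe -0.59) and with GDC-0449 (-0.88, adjusted p = 0.00788; other probe -0.27). Bend6, which encodes a corepressor that binds RBPJ, was the other gene of this role that fell with GDC-0449 (-0.38, adjusted p = 0.0353), from 6.50 and 6.52 to 6.10 and 6.16. Dtx2 passed upward with JQ1 (0.27) and GDC-0449 (0.37), neither of which remained called under median scaling. Fbxw7, a ligase adaptor that marks the active receptor for degradation, passed with JQ1 (0.40, adjusted p = 0.0133), with 0.04 under median scaling. The endocytic inhibitor genes Numb (0.40, adjusted p = 0.0354) and Numbl (0.49, adjusted p = 0.0188) passed with GDC-0449, with 0.11 and 0.30 under median scaling. Other probes gave 0.57, 0.03, 0.61 and 0.52 for Numb and 0.23 for Numbl with GDC-0449.

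Of the rest of the Hes and Hey family, Hes6 alone was tested. Its product counteracts Hes1 and favours neuronal differentiation. It rose from 9.63 and 9.68 to 10.46 and 10.35 with JQ1 (0.75, SE 0.10, adjusted p = 0.000422) and to 10.30 and 10.13 with GDC-0449 (0.57, SE 0.10, adjusted p = 0.0112), and its other probes gave 0.99 and 0.67 with JQ1. The GDC-0449 call was lost with median scaling (0.27, adjusted p = 0.145). Hes2, Hes3, Hes7, Hey2 and Heyl were not above background often enough to test.

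The genes nearest to each member over the 6 arrays were found by the root mean square distance of centred log2 values among 8403 named genes. Mfng was nearest to Cc2d2a (distance 0.085; log2 change with JQ1 -2.79, with GDC-0449 0.05) and to Nope (0.134). Nrarp lay nearest to the histone gene Hist1h4f (0.027) and to Phlda1 (0.066). For Notch1 these were Dnajc12 (0.038) and Usp20 (0.046), for Dll1 Bbc3 (0.053) and Tnip1 (0.063), and for Hes5 Fkbpl (0.041) and Thrap3 (0.052). Hey1 lay nearest to Npal3 (0.054; -0.29 with JQ1, 0.77 with GDC-0449) and Camta2 (0.062). Hes1 was nearest to Pim3 (0.017) and Arih2 (0.022), and Dll3 had no close neighbour, with Tox3 at 0.16 and Rg9mtd3 at 0.169. With 6 arrays in 3 groups many genes share such a pattern, and the distances are a description.

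Marker genes bear on which cells were present. Of 9 granule neuron precursor markers, 6 were tested (Barhl1, Zic1, Zic2, Mfap4, Meis1 and En2), while Atoh1, Pax6 and Neurod1 were not above background on enough arrays. Their summed linear level was 5520 to 5910 with DMSO, 5940 to 6190 with JQ1 and 7650 to 8080 with GDC-0449. Single markers went different ways with JQ1, where Barhl1 (-0.77), Meis1 (-0.63; other probes -0.11 and -0.04) and Mfap4 (-0.48) fell and Zic1 (0.33), Zic2 (0.63) and En2 (0.58) rose. Mfap4 was not above background with JQ1 and entered the test only through the other groups. With GDC-0449, Barhl1 (1.53), Mfap4 (1.32) and Meis1 (0.45) rose and the other 3 did not pass. Nes and Slc1a3, the tested 2 of 7 neural stem and astrocyte markers, summed to 2550 to 2570, 2010 to 2020 and 2280 to 2350 in the same order of groups. With JQ1, Slc1a3 fell (-0.86, adjusted p = 0.000116) while Nes rose (0.62, adjusted p = 0.00115), and neither passed with GDC-0449. Sox2, Gfap, Aqp4, Fabp7 and Aldh1l1 were not above background on enough arrays. Of the oligodendrocyte markers, Olig1, Olig2, Mog and Sox10 were not above background on enough arrays, while the myelin gene Mbp was tested and fell with JQ1 from 8.59 and 8.33 to 6.35 and 6.25 (log2 change -2.16, SE 0.11, limma adjusted p = 3.66e-06; other probe -0.61), and it read 8.23 and 8.22 with GDC-0449. Of 6 markers each, 1 microglial gene (Csf1r) and 1 mural gene (Acta2) were tested, with summed levels of 14.9 to 28.9 and 19.2 to 31 over the 6 arrays. These markers moved with the groups in part, and their part in the Notch gene results was not tested.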

How the data were processed

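Per the labels' protocols, Trizol-extracted RNA of the 6 samples was quality checked and made into biotin-labelled cRNA for Illumina mouse bead arrays. The submitters' processing notes name GenomeStudio 1.9.0. The authors' deposited table gives, per the file headers, a mean bead intensity per probe on a linear scale, not normalized. It also gives, per the file headers, a detection p-value that ranks the probe among its array's negative controls and is not adjusted. The second deposited table holds intensity values per gene name, with the same distribution in all 6 columns and values below 0. Background subtraction and quantile normalization were inferred from these traits. That table's exact steps are not given in the sources used here. It served as an alternative, as log2 of values set to at least 0 plus 16.

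Here background was corrected and arrays normalized with neqc (limma 3.58.1, R 4.3.3), where negative-control signal is inferred through the detection p-values and 16 is added before quantile normalization and log2. The offset pulls changes of dim probes towards 0, and quantile normalization makes every change relative to the other genes. The 17026 probes above background (detection p under 0.01) on 2 or more arrays were fitted with lmFit and eBayes, with 1 coefficient per group, 3 residual degrees of freedom and 5.33 from the prior. Tests were two-sided and Benjamini-Hochberg adjusted over all these probes at 0.05. Errors are standard errors from this model. A fold against a group with no array above background is "at least", with lower values raised to each array's lowest detected signal. The number of arrays limits the precision. The fit was tested on simulated data.

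Older symbols of list genes were matched through RefSeq (GRCm38.p6). Named were all members, and per role and comparison at most 4 other list genes past the threshold with the largest change. Pofut1, Aph1a, Bend6 and Dtx2 with GDC-0449 fall outside that rule and were named after their values were seen, as were the genes listed as not above background. The members and lists were chosen with earlier results of these data known. One marker gene is not reported here.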

Additional observations from a re-analysis of the deposited data

How the results depend on the processing

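Of 453 single values (10 probes or genes, 3 comparisons, up to 16 alternatives), 411 kept their direction and side of the threshold, 28 lost a call, 5 gained one and 9 changed sign, each of the latter from a value that had not passed. With median scaling the median log2 change of all tested probes was -0.3 with JQ1, -0.2 with GDC-0449 and -0.09 between them, and rises made up 20.1%, 10.4% and 36.6% of calls, against 48.9%, 47.2% and 49.1% with quantiles. Relative to that median, the JQ1 values were 0.33 for Dll1, 0.50 for Hes5, 0.94 for Notch1, -0.43 for Hey1, -2.78 for Mfng and 2.08 for Nrarp. Median scaling gave 2 members that rose with JQ1 and 1 with GDC-0449, 5 and 21 list genes that rose and fell with JQ1, 2 and 10 with GDC-0449, and 7 higher with JQ1 than GDC-0449. Over all probes it gave 2004 rises and 7986 falls with JQ1 (4692 and 4903 with quantiles) and 465 and 4001 with GDC-0449 (1232 and 1380). It also turned the sign of Hes1 with JQ1 (-0.22), and of Mfng (-0.09) and the dimmer Hes5 probe (-0.01) with GDC-0449.

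List genes that fell with GDC-0449, 3 in the main analysis, were 8 with no background correction and with an offset of 50, and 5 with probes detected on all arrays or averaged per symbol. With no filter on dim probes, 752 probes rose and 857 fell with GDC-0449, of more probes tested. Averaging gave 0.09 for Hes5 between the compounds. The cause of these shifts was not tested.

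Leaving out 1 array, with the 17026 probes kept, left a group with 1 array whose spread is assumed like the others. With JQ1 it gave 1 to 2 members that fell (1 without DMSO array 1) and 10 to 16 list genes that rose (10 without JQ1 array 1). With GDC-0449 it gave 2 to 4 members that rose (2 without DMSO array 1, DMSO array 2 or GDC-0449 array 2), 3 to 9 list genes that rose, 0 to 3 that fell, and 314 to 1115 probes that rose and 408 to 1311 that fell, the low ends without a DMSO or GDC-0449 array. Between the compounds 5 to 10 list genes were higher with JQ1. Dll3 ranged from -0.56 to 0.26 with JQ1, from -0.19 to 0.66 with GDC-0449 and from -0.80 to 0.05 between the compounds (0.02 without JQ1 array 1), and Hes5 from -0.14 to 0.10 between the compounds. Their signs changed without JQ1 array 1 or GDC-0449 array 2 for Dll3, and without GDC-0449 array 2 for Hes5.

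The replicate numbers of the titles are shared by the groups, but the labels do not say that they pair samples. Differences between arrays 1 and 2 correlated at 0.01, -0.01 and 0.07 between groups over probes. With the number as a block, 4 members rose and 2 fell with JQ1, 4 rose and 0 fell with GDC-0449, and 3 were higher and 3 lower between the compounds, as without it.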
